A study of Mus musculus with 15 samples.

Results

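Cadherins and protocadherins were described in the cerebellum of newborn mice with and without the chemokine receptor CXCR4. A gene was a member when its array symbol was Cdh plus a number (Cdh5, the cadherin of blood vessels, was left out), Pcdh plus a number, Pcdha, Pcdhb or Pcdhg plus further characters, or Celsr1, Celsr2 or Celsr3. The rule used names and no measured value, and 80 of the 16593 genes on the array met it. They comprised 4 type I classical cadherins, 9 type II cadherins, 5 other cadherins, 7 delta protocadherins, 2 other protocadherins, 8 genes of the alpha, 22 of the beta and 20 of the gamma protocadherin cluster, and the 3 Celsr genes. Whole cerebella of C57BL/6 mice were taken on postnatal day 1 (P1), and RNA of each sample was hybridised to 1 Illumina MouseRef-8 v2 array. The KO group (7 arrays, numbered 2 to 8) carried Cxcr4 flox/flox with Sox1-Cre, a transgene that drives Cre recombinase in the neural tube, and the labels call it Cxcr4 null. The WT group (8 arrays, numbered 1 to 8) were littermates without Cre. The dissected tissue also holds meninges, blood vessels and blood, for which neither the labels nor the methods describe Cre. The labels give no sex, and in bulk tissue fewer cells of a type and less RNA per cell cannot be told apart.

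Cadherins are calcium-dependent adhesion proteins of the cell surface. Classical cadherins bind the same or a similar cadherin on the neighbouring cell and hold the actin skeleton through catenins, and neurons that express the same type II cadherins tend to gather together. Delta protocadherins are single genes that act in neurite growth and sorting, whereas the alpha, beta and gamma protocadherins lie in 3 neighbouring gene clusters from which each neuron picks a small set of isoforms that serves to recognise its own branches. The Celsr proteins are cadherins with a 7-pass membrane domain that take part in planar cell polarity and in the guidance of axons. In the cerebellum, adhesion of this kind operates while granule cell precursors lie in the external layer and Purkinje cells settle below them.

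The Cxcr4 signal, which checks the labels, was 8.80 to 9.79 on the WT arrays and 6.45 to 6.89 on the KO arrays (all signals are log2 of the probe signal after each array was set to 1 common median of 6.84). The difference was -2.66 (SE 0.13, adjusted p = 9.9e-11 in limma), and the groups did not overlap. Probes of the cerebellar genes Zic1, Reln, Gdf10 and Pcp2 had mean WT signals of 12.85, 14.07, 13.17 and 11.60, while those of Calb1, Pax6 and Gabra6, also markers of cerebellar neurons, lay at 5.91, 6.17 and 5.97, below the array median. Of 18 measured meningeal markers, 0 passed the test, but 6 were lower in KO and 0 higher at an unadjusted p under 0.05 (2.63% of all genes were lower), with a median difference of -0.41 and the lowest, of Slc6a13, at -1.52. Their mean signal ranged from 7.83 to 8.96 over the WT arrays and from 6.74 to 8.90 over the KO arrays. The 3 KO arrays 6, 7 and 8 were the lowest of all 15 (7.31, 7.02 and 6.74). The same 3 arrays were lowest in the mean signals of endothelial (8.10, 8.13 and 8.10) and pericyte and smooth muscle markers (7.14, 7.06 and 6.99). This also held for microglial or macrophage (7.55, 7.53 and 7.40) and for Bergmann glia and astrocyte markers (9.50, 9.56 and 9.53). Choroid plexus markers were lowest there too (7.33, 7.47 and 7.33). Highest on these arrays were the means of 9 Purkinje cell (9.59, 9.64 and 9.50) and 10 granule cell markers (9.27, 9.32 and 9.30). The granule cell mean, however, was higher on every KO array (9.16 to 9.32, with KO 5 at 9.27) than on every WT array (9.06 to 9.13). Among single markers, limma called Barhl1 of granule cells (0.50, adjusted p = 0.0137) and Pvalb of Purkinje cells (0.68, adjusted p = 0.0156). It also called Gdf10 of Bergmann glia (-0.78, adjusted p = 0.000162) and Bcas1 of oligodendrocytes (0.59, adjusted p = 0.00244). Those of oligodendrocyte and blood markers were neither lowest nor highest there. The choroid plexus marker Ttr had a signal of 15.46 to 15.90 on 6 arrays (WT 4, 6 and 8 and KO 2, 3 and 5) and of 7.20 to 10.6 on the other 9. The signal of Xist, an RNA of the inactive X chromosome, was above 8 on 6 of 8 WT and 1 of 7 KO arrays, and the part of sex in any difference was not tested beyond a fit with Xist as a covariate.

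The signals of the members on the WT arrays showed which probes stood above the median of the array. A probe's brightness also depends on the probe, so the levels give no order of RNA amounts among genes. Of the 80 members, 27 lay above the array median on all 15 arrays, compared with 7970 of all 16593 genes. All 3 Celsr genes did so, as did 5 of 7 delta protocadherins, both other protocadherins, 4 of 9 type II and 2 of 4 type I cadherins. In the clusters this held for 2 of 8 alpha, 4 of 22 beta and 4 of 20 gamma genes. Probes far above the median were those of Celsr3 (11.79 ± 0.25, SD, in WT), the delta protocadherin Pcdh17 (11.68 ± 0.21), Celsr2 (10.85 ± 0.17), Pcdha6 (10.28 ± 0.23), Cdh13, a cadherin held by a lipid anchor (9.60 ± 0.19), and Pcdh10 (9.40 ± 0.20). The neural cadherin Cdh2 had 7.95 ± 0.15, and the type II cadherins Cdh6, Cdh7, Cdh8 and Cdh22 had 8.06 ± 0.14, 8.71 ± 0.22, 9.07 ± 0.16 and 8.20 ± 0.17. The SD over the WT arrays ran from 0.063 to 0.49 among members, with a median of 0.14, and that of all genes had a median of 0.14 as well. Cdh3 had the largest (0.49), followed by Cdh1 (0.27), Celsr3 (0.25) and Pcdhgc5 (0.23).

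**Figure D1:**
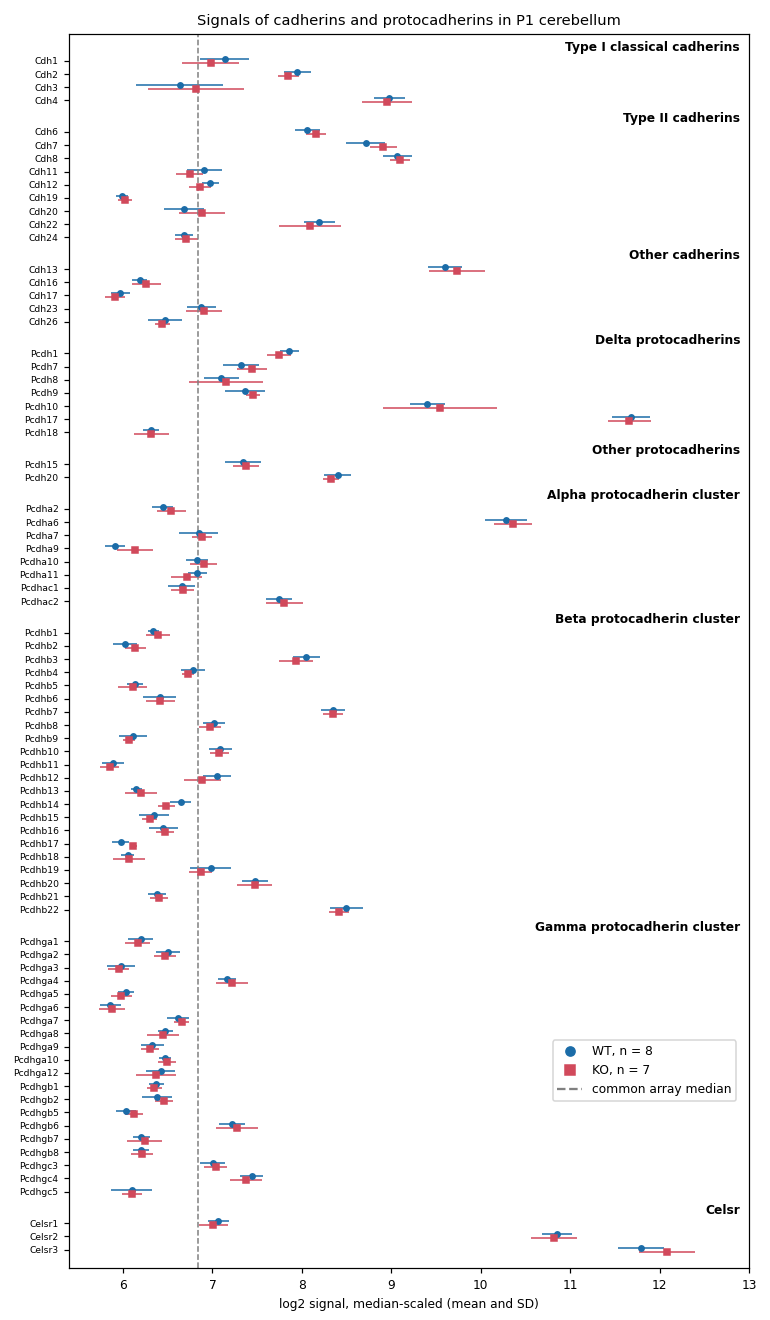
Mean log2 signal with SD of the 80 members (x axis) in WT (circles, 8 arrays) and KO (squares, 7 arrays), by family; the dashed line is the common array median of 6.84. The groups lie close together for nearly every gene, and most cluster genes lie left of the line.

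The first question was whether loss of CXCR4 changed the expression of any member. None passed the test at an adjusted p under 0.05: limma called 0 of the 80 members, beside 21 of all 16593 genes (0.127%), 13 lower in KO (0.0783%) and 8 higher (0.0482%). At an unadjusted p under 0.05 there were 5 members (6.25%), 4 higher and 1 lower. Of all genes 5.69% did so, 3.06% higher and 2.63% lower, so the share of members was close to the background. The median difference of the members was 0.0077, and that of all genes 0.015, on the log2 scale. Their median size without sign was 0.054 in both. Of the members, 43 were above and 37 below 0. The 95% interval of the difference lay within 0.5 of 0, on the log2 scale, for 77 of 80 members and within 1 for all 80. The intervals that reached past 0.5 were those of Cdh3 (-0.27 to 0.64), Pcdh10 (-0.27 to 0.55) and Celsr3 (0.03 to 0.56). A p that misses the threshold does not show that the levels were alike, but these intervals bound the size of a change in signal. For the 43 members with a mean at or below the array median, a dim probe may understate a change in RNA.

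**Figure D2:**
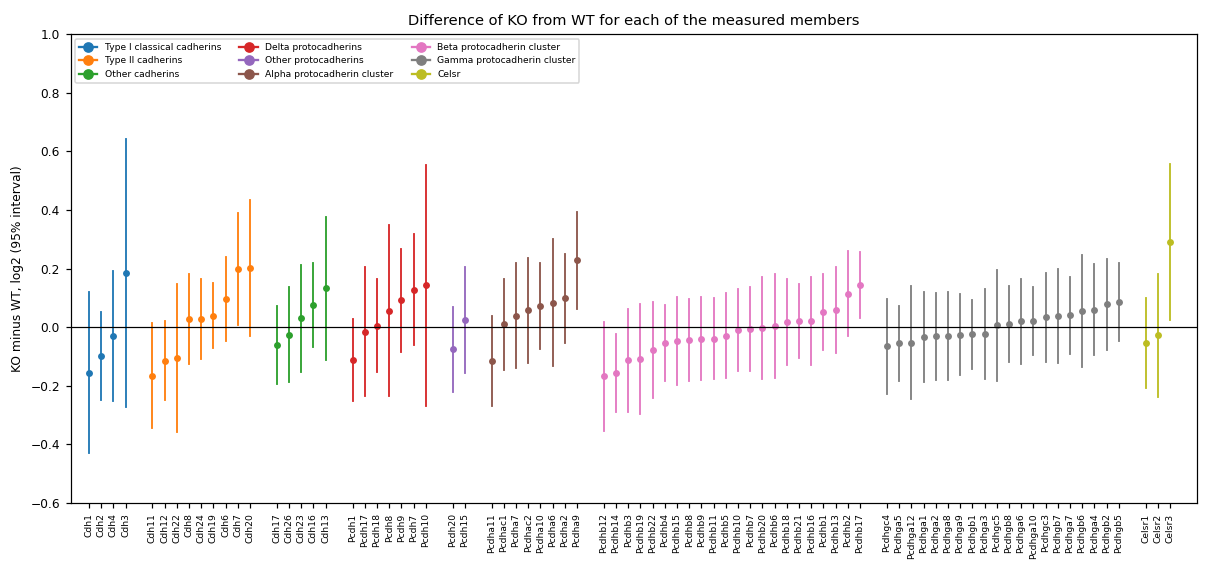
KO minus WT on the log2 scale (y axis) with its 95% interval for each of the 80 members, grouped and coloured by family and ordered within a family by the difference. The differences run from -0.17 (Pcdhb12) to 0.29 (Celsr3), and 77 of the 80 intervals lie within 0.5 of 0.

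Among the Celsr genes, Celsr3, which is needed for the growth of major axon tracts in the mouse, had the highest difference of all members. Its signal was 11.41, 11.81 and 12.10 (lowest, median and highest) on the WT arrays and 11.71, 12.13 and 12.49 on the KO arrays. The groups overlapped, and the 4 KO arrays numbered 5 to 8 lay above every WT array. The difference was 0.29 (SE 0.13, 1.22-fold, adjusted p = 0.797). The second, dimmer probe of Celsr3 (6.45 in WT) had a difference of 0.02. Celsr2, a close relative expressed widely in the brain, had signals of 10.59 to 11.04 in WT and 10.50 to 11.12 in KO, with a difference of -0.03 (SE 0.10). Celsr1, known from cell polarity in epithelia, had 6.95 to 7.32 in WT and 6.85 to 7.35 in KO, with a difference of -0.05 (SE 0.07). On both genotypes the highest Celsr1 signal came from the array numbered 7.

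The promoters of 3 members are shown because Celsr3 had the largest difference between genotypes among the members, and Pcdh10 and Pcdh17 the lowest p for a KO difference that changed between array sets (described further on). Each run holds 300 bases of the coding strand, 250 before and 50 after the annotated start in RefSeq (GRCm38.p6), and capitals mark the CCAAT box (CCAAT or ATTGG) and the GC box (GGGCGG or CCGCCC), the only motifs searched, on both strands. They lie at chr9:108825795-108826094 (Celsr3), chr3:45378148-45378447 (Pcdh10) and chr14:84443313-84443612 (Pcdh17), all on the plus strand.
Celsr3: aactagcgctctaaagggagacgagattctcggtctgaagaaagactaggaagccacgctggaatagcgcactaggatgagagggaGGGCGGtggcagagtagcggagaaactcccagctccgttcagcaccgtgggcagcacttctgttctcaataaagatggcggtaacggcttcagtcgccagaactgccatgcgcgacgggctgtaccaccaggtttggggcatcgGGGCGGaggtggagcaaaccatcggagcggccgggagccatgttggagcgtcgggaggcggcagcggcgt
Pcdh10: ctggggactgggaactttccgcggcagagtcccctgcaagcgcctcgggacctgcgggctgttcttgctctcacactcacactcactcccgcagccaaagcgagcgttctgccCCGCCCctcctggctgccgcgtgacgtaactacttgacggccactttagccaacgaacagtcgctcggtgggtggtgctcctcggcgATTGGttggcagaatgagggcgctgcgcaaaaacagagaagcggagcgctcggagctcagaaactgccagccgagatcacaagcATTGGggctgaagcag
Pcdh17: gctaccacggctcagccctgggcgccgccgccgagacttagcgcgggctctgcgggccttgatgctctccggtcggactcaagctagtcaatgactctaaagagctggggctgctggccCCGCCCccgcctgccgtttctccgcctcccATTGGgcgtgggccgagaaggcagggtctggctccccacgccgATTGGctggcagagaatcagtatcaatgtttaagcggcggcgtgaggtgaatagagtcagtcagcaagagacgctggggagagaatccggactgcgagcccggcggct
The Celsr3 promoter held 2 GC boxes and 0 CCAAT boxes and was 60.7% G and C. The promoters of the delta protocadherins Pcdh10 and Pcdh17 each held 2 CCAAT boxes and 1 GC box, at 62.3% and 65.0%. Of all 32851 promoters of that table, 37.4% held a CCAAT box and 35.7% a GC box. Of the 22 promoters found there for 19 members, 59.1% and 36.4% did. A match is a match of letters only.

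Type I classical cadherins had no call, with 1 of 4 differences above 0. Cdh2, the main classical cadherin of neurons and their progenitors, had signals of 7.72, 7.93 and 8.17 in WT and 7.75, 7.81 and 8.08 in KO (lowest, median and highest). The difference was -0.10 (SE 0.07), with 6 of 7 KO arrays below the WT mean. Its 4 probes did not share 1 sign. Cdh4, also called R-cadherin, had 8.72 to 9.20 in WT and 8.45 to 9.26 in KO, with a difference of -0.03 (SE 0.11). Cdh1, the cadherin of epithelia, had a median of 7.15 in WT and 6.82 in KO within ranges of 6.71 to 7.58 and 6.64 to 7.53. Its difference was -0.16 (SE 0.13, adjusted p = 0.985), and the groups overlapped. Cdh3, P-cadherin of epithelia, had a difference of 0.19 (SE 0.22), the largest SE of all members. Its 4 probes gave 0.19, -0.12, -0.04 and 0.07, so its direction is not settled, and the mean of its probes gave 0.03.

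On its brightest probe, Cdh3 was split into high and low arrays within both genotypes. On the WT arrays its signal was 7.36, 7.05 and 7.20 in WT 4, 6 and 8 and 6.13 to 6.45 in the other 5. On the KO arrays it was 7.40, 7.32 and 7.42 in KO 2, 3 and 5 and 6.28 to 6.48 in the other 4. The second brightest probe of Cdh3 did not show this split (6.40, 6.29 and 6.42 in WT 4, 6 and 8). The dimmest probe did, with 6.66, 6.49 and 6.74 in WT 4, 6 and 8 and 6.46, 6.35 and 6.72 in KO 2, 3 and 5. On that probe the other arrays lay at 6.15 or below. The remaining probe was highest on WT 4, 6 and 8 within WT, but not on KO 2, 3 and 5 within KO. The 6 high arrays were the 6 on which Ttr was at 15.46 or above. Cdh3 was the only 1 of the 80 members whose 6 highest arrays were those 6. The 8 measured choroid plexus markers had 0 calls between genotypes, and their mean signal ranged from 7.62 to 11.11 over WT and from 7.33 to 11.39 over KO arrays. Over the 9 arrays with the lower Ttr signal, a choice made after the data were seen, 0 members were called as well. A part of choroid plexus tissue in the Cdh3 signal was not tested.

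**Figure D3:**
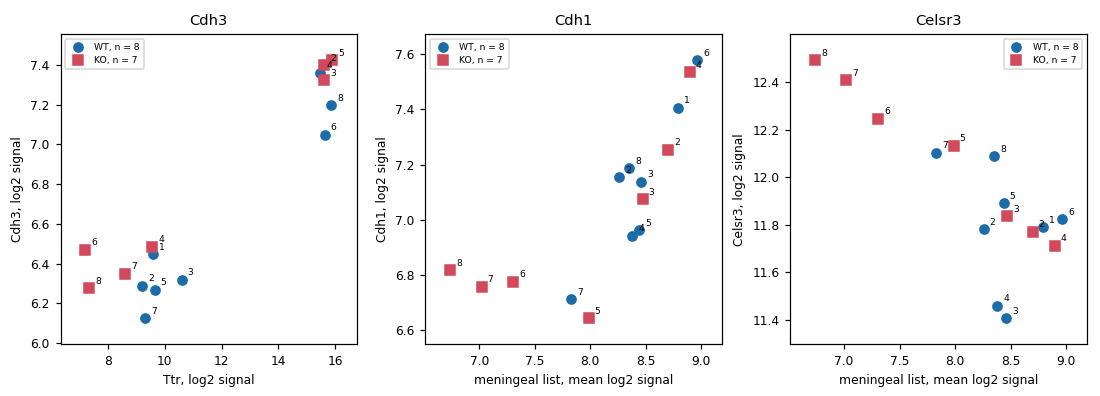
Log2 signal per array of Cdh3 against Ttr (left), and of Cdh1 (middle) and Celsr3 (right) against the mean log2 signal of 18 meningeal markers; circles are WT, squares KO, numbers the array. Cdh3 is at 7.05 or above only on the 6 arrays with high Ttr, and KO 6, 7 and 8 lie lowest in the meningeal mean.

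Type II cadherins, which help neurons of 1 kind to gather, gave 0 calls of 9, with 6 differences above and 3 below 0. Cdh7 had signals of 8.48, 8.69 and 9.18 in WT and 8.71, 8.87 and 9.12 in KO. Its difference was 0.20 (SE 0.09, 1.15-fold, adjusted p = 0.845), and 6 of 7 KO arrays lay above the WT mean although WT 7 was the highest of all. Cdh20 had a difference of 0.20 (SE 0.11), from 6.42 to 7.08 in WT and from 6.42 to 7.26 in KO. Cdh11, a cadherin also known from mesenchyme and bone, had -0.17 (SE 0.09) on its brightest probe, and a second probe gave 0.14, so its direction is not settled. Cdh6 and Cdh8 had differences of 0.10 (SE 0.07) and 0.03 (SE 0.07), Cdh12 of -0.11 (SE 0.06) and Cdh22 of -0.11 (SE 0.12). Cdh19 and Cdh24, dim on nearly every array, had 0.04 and 0.03.

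The other cadherins gave 0 calls of 5. Cdh13, which regulates neurite growth, had signals of 9.34, 9.58 and 9.91 in WT and 9.32, 9.80 and 10.08 in KO, with a difference of 0.13 (SE 0.12). Its values overlapped, with KO 6, 7 and 8 the 3 highest arrays. Cdh23, a component of the tip links of hair cells, had a difference of 0.03 (SE 0.09). Cdh16 and Cdh17, cadherins of kidney and gut, stayed below the array median on all 15 arrays and had 0.08 (SE 0.07) and -0.06 (SE 0.06). Pcdh15, the partner of Cdh23 in the tip link, had 0.02 (SE 0.09), and Pcdh20 had -0.08 (SE 0.07).

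Delta protocadherins gave 0 calls of 7, but held the largest spread within KO. Pcdh10, which acts in axon growth in the forebrain, had signals of 9.22 to 9.79 on the 8 WT arrays, with a median of 9.36. On the KO arrays 2, 3, 4 and 5 it was 9.53, 8.88, 8.74 and 9.16, and on KO 6, 7 and 8 it was 10.14, 10.08 and 10.28. Thus, on this brightest probe, 3 KO arrays lay above and 3 below every WT array, and the KO SD was 0.64 against 0.20 in WT. The difference of the means was 0.14 (SE 0.20, adjusted p = 0.993). All 3 probes of Pcdh10 gave a difference above 0 (0.14, 0.06 and 0.09), but the split depended on the probe. On the second brightest, KO 7 and 8 (9.22 and 9.34) lay above every WT array (8.72 to 9.13). There KO 6 was at 8.89, and only KO 3 (8.67) lay below every WT array. On the dimmest, KO 6, 7 and 8 were again the highest (8.95, 9.35 and 9.29). Pcdh17, related to it and found in circuits between cortex and basal ganglia, had 11.46 to 12.05 in WT and 11.31 to 11.94 in KO, with a difference of -0.02 (SE 0.11). Its signals on KO 6, 7 and 8 (11.92, 11.94 and 11.83) were the highest of KO, and WT 1 was the highest of all at 12.05. Pcdh8 had 6.86 to 7.47 in WT, 6.67 to 7.15 on KO 2 to 5 and 7.64, 7.53 and 7.52 on KO 6, 7 and 8, with a difference of 0.06 (SE 0.14). Pcdh9 lay above the WT mean on 7 of 7 KO arrays, inside the range of the WT arrays, with a difference of 0.09 (SE 0.08). Pcdh1 had -0.11 (SE 0.07), Pcdh7 0.13 (SE 0.09) and Pcdh18 0.01 (SE 0.08).

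**Figure D4:**
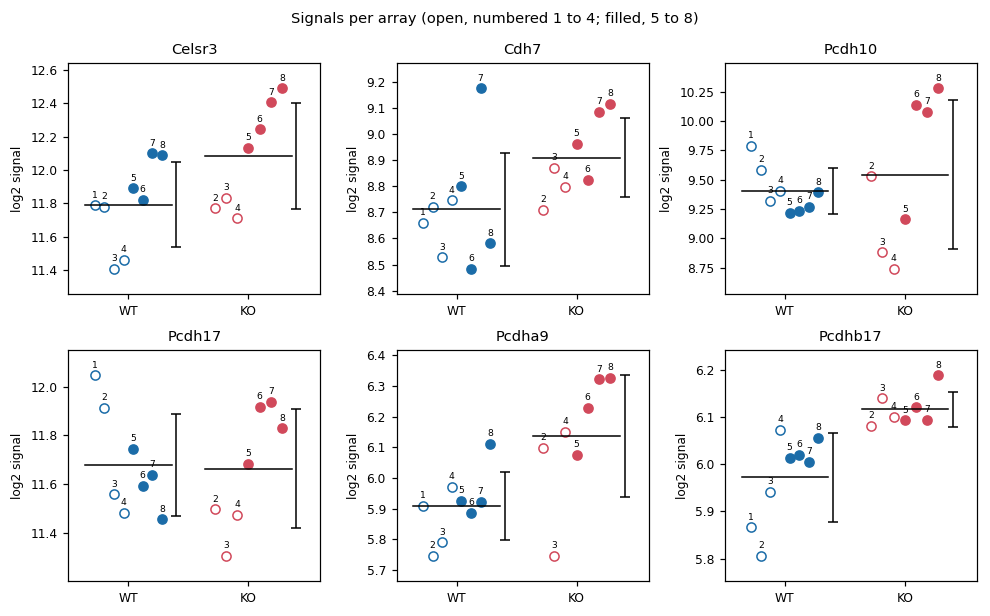
Log2 signal on each array for 6 members in WT (8 arrays) and KO (7 arrays); open points are arrays numbered 1 to 4, filled points 5 to 8, lines the means and bars the SD. The KO points of Pcdh10 split into 10.08 to 10.28 for KO 6, 7 and 8 and 8.74 to 9.53 for the others.

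In the clusters, 0 of 50 genes were called. Transcripts of the alpha cluster share their last exons, as do those of the gamma cluster, so a probe there can read several isoforms, and the array's file does not give where a probe lies. Of the 8 alpha genes, 7 had a difference above 0. Pcdha9 had the lowest p of all members: 5.75, 5.92 and 6.11 in WT and 5.75, 6.15 and 6.33 in KO. The difference was 0.23 (SE 0.08, 1.17-fold, adjusted p = 0.604), and the signal was below the array median on all 15 arrays. The brighter Pcdha6 had medians of 10.25 in WT and 10.35 in KO, with a difference of 0.08 (SE 0.10). Pcdhac2, an isoform used by serotonin neurons, had 0.06 (SE 0.09), and Pcdha2 and Pcdha11 had 0.10 (SE 0.07) and -0.12 (SE 0.07).

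Of the 22 beta genes, 8 had a difference above and 14 below 0, with a median of -0.02. Pcdhb17 was the only 1 of the 80 members whose groups did not overlap, beside 0.145% of all genes. Its signal was 5.81, 6.01 and 6.07 in WT and 6.08, 6.10 and 6.19 in KO, all below the array median. The difference was 0.14 (SE 0.05, 1.11-fold, adjusted p = 0.679), with the highest WT array at 6.07 and the lowest KO array at 6.08. Pcdhb14 had 6.52, 6.59 and 6.83 in WT and 6.30, 6.50 and 6.59 in KO, with -0.16 (SE 0.06, adjusted p = 0.76) and 7 of 7 KO arrays below the WT mean. Pcdhb12 had -0.17 (SE 0.09). The beta genes that lay above the array median on every array, Pcdhb3, Pcdhb7, Pcdhb20 and Pcdhb22, had -0.11 (SE 0.08), -0.01 (SE 0.07), -0.004 (SE 0.08) and -0.08 (SE 0.08). The differences of the 20 gamma genes ran from -0.07 to 0.09 with a median of 0.01. The lowest p among them were those of Pcdhgb5 (0.09, SE 0.06), Pcdhgb2 (0.08, SE 0.07) and Pcdhga5 (-0.06, SE 0.06). The C-type isoforms Pcdhgc3, Pcdhgc4 and Pcdhgc5, of which Pcdhgc4 is needed for the survival of neurons in the mouse, had 0.03 (SE 0.07), -0.07 (SE 0.08) and 0.01 (SE 0.09).

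The next question was how far members varied from 1 set of arrays, those with label numbers 1 to 4 (4 WT, 3 KO), to the other with 5 to 8 (4 WT, 4 KO), since the number is all the labels give. With genotype in the model, 10 of the 80 members (12.5%) differed at an adjusted p under 0.05, beside 20.8% of all genes. Of these, 9 were higher on arrays 5 to 8 (16.3% of all genes) and 1 was lower (4.45%). Celsr3 was higher by 0.45 (SE 0.08, adjusted p = 0.000701), Cdh22 by 0.36 (SE 0.09, adjusted p = 0.00721), Cdh4 by 0.34 (SE 0.07, adjusted p = 0.00385) and Celsr2 by 0.33 (SE 0.07, adjusted p = 0.00192). Cdh20, Pcdhgc5, Pcdhga12, Pcdhb20 and Pcdhgb2 were higher by 0.30, 0.28, 0.23, 0.21 and 0.19, and Cdh26 was lower at -0.19. On arrays 1 to 4 the Celsr3 signal was 11.79, 11.78, 11.41 and 11.46 in WT and 11.77, 11.83 and 11.71 in KO. On arrays 5 to 8 it was 11.89, 11.82, 12.10 and 12.09 in WT and 12.13, 12.24, 12.41 and 12.49 in KO. Within the second set all 4 KO arrays lay above all 4 WT arrays, whereas in the first set the groups overlapped. The KO difference of Celsr3 was 0.16 in the first set and 0.34 in the second, and the difference of these did not pass (interaction adjusted p = 0.714). With array set in the model it was 0.26 (adjusted p = 0.261).

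A test of the interaction of genotype with array set called 0 of the 80 members and 0 of all genes (0%). At an unadjusted p under 0.05 there were 6 members (7.5%), beside 9.97% of all genes. Pcdh10, on its brightest probe, had the largest interaction (1.11, SE 0.29, adjusted p = 0.226). Its KO difference was -0.47 on arrays 1 to 4 and 0.64 on arrays 5 to 8. Without KO 5, which belongs to the second set and had 9.16, the interaction of Pcdh10 was 1.36 (SE 0.21, adjusted p = 0.00408). That fit called 254 of 16593 genes and was the only one without 1 array that called a member. It left KO 6, 7 and 8, the 3 arrays highest for Pcdh10, as the only KO arrays of the second set. A larger interaction was therefore fixed by which array was left out. Pcdh17 had -0.32 and 0.23 in the 2 sets (interaction 0.56, SE 0.16, adjusted p = 0.266), and Cdh26 had -0.18 and 0.13 (interaction 0.30, SE 0.11, adjusted p = 0.355). The other 3 were Pcdhgb6 (0.39), Pcdhb6 (0.37) and Cdh1 (-0.49). Over all members the median KO difference was -0.05 on arrays 1 to 4 and 0.05 on arrays 5 to 8, while those of all genes were 0.002 and 0.02. Within each set, 0 members were called, beside 0.115% and 0.271% of all genes.

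**Figure D5:**
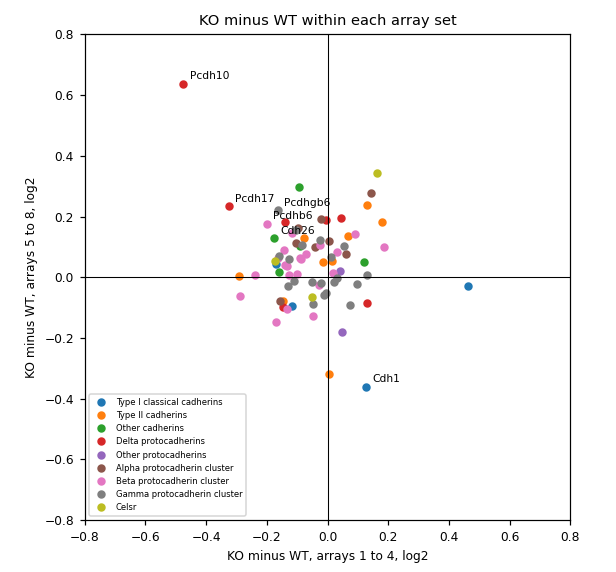
KO minus WT (log2) of each of the 80 members on arrays 1 to 4 (x axis) and on arrays 5 to 8 (y axis), coloured by family, with the 6 named whose interaction had an unadjusted p under 0.05. Pcdh10 and Pcdh17 lie in the upper left, at -0.47 and 0.64 and at -0.32 and 0.23.

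Arrays KO 6, 7 and 8, lowest in meningeal markers, were the 3 highest of all 15 for 5 members (6.25%, beside 2.54% of all genes). These were Cdh13, Pcdh8, Pcdh10, Pcdha9 and Celsr3. The same arrays were the 3 lowest for 0 members (2.18% of all genes). This order was read on brightest probes. On the second probes of Cdh13 and Pcdh10, KO 6 (8.34 and 8.89) lay below WT 1 (8.44) and WT 7 (9.13). The third probe of Pcdh10 showed the order. The dim second probes of Pcdh8 and Celsr3 did not, and Pcdha9 had 1 probe, below the array median. The meningeal, endothelial, pericyte, microglial, Bergmann glial, choroid plexus and Purkinje cell markers given above also moved on KO 6, 7 and 8. The mean of the granule cell markers was highest there too, but was above WT on every KO array. Over the 12 arrays other than KO 6, 7 and 8, a choice made after the data were seen, 0 members were called. The KO differences there were 0.07 for Celsr3, 0.11 for Pcdha9, -0.08 for Cdh13 and -0.32 for Pcdh10. Since the arrays left out were the highest of these members, each difference had to fall. Each member was correlated with the mean signal of the 18 meningeal markers within each genotype (160 relations, exact permutation tests of both sides). None passed Benjamini-Hochberg adjustment, and 20 had an unadjusted p under 0.05 in KO (25.0%, beside 19.0% of all genes) and 6 in WT (7.5%, beside 7.05%). Of the 20 in KO, only Pcdh20 (r = 0.80) and Cdh1 had a positive r. Of the 6 in WT, only Cdh1 and Pcdha10 (r = 0.71) did. The signs over all genes are not given. Over the 7 KO arrays, Celsr3 had r = -0.99 and rho = -1.0 (exact p = 0.000397 for each, adjusted p = 0.0635). That p is the smallest that 7 arrays allow for rho, but not for r. Without the 2 arrays farthest from the median meningeal signal, r was -0.975. Over the 8 WT arrays, which span a narrower range of the marker mean, Celsr3 had r = -0.31 and rho = -0.36 (exact p = 0.466 and 0.389, adjusted p = 0.783). Cdh1 went the other way: r was 0.91 in WT (rho 0.64, exact p = 0.00422 and 0.0962, adjusted p = 0.222) and 0.78 in KO (rho 0.68, exact p = 0.0427 and 0.11, adjusted p = 0.301). Without the 2 farthest arrays these r were 0.64 and 0.85. A set holds 3 or 4 arrays of 1 genotype, too few for a correlation of its own, so both measures were centred within the sets for these 2 genes, chosen after their values were seen. Celsr3 then had r = -0.97 over the KO arrays (exact p = 0.00694 over 144 pairings within sets, the smallest they can give) and -0.335 over the WT arrays (exact p = 0.375). For Cdh1, r was -0.0456 in KO (exact p = 0.875) and 0.905 in WT (exact p = 0.0278), so its relation in KO did not hold within sets. These p are not adjusted. The part of meningeal or vascular tissue in these signals was not tested.

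The genes that work with the members were read from 7 lists, of which 68 of 80 genes were measured. None passed the test, and at an unadjusted p under 0.05 there were 3 (4.41%), 2 lower and 1 higher, beside 5.69% of all genes. Fjx1, a kinase that acts on the Fat and Dachsous cadherins, came closest. Its signal was 9.34 to 9.64 on the WT arrays and 9.10 to 9.41 on the KO arrays, where only KO 5 lay above the lowest WT arrays. The difference was -0.26 (SE 0.06, adjusted p = 0.184), and it passed with array set in the model (-0.28, adjusted p = 0.0209) and after quantile normalization (-0.26, adjusted p = 0.013). Vcl, which links catenins to actin, had -0.25 (SE 0.09, adjusted p = 0.649), and Clstn2, a calsyntenin of synapses, had 0.14 (SE 0.07). Among catenins, Ctnna1 had -0.15 (SE 0.08) and Ctnnb1 -0.10 (SE 0.08). The planar cell polarity partners of Celsr gave 0 calls of 10, and Ptk7 and Dvl3 had -0.10 (SE 0.09) and 0.08 (SE 0.07). The WAVE complex, which protocadherins recruit, and linked kinases gave 0 calls of 10, with -0.10 (SE 0.07) for Nckap1 and -0.06 (SE 0.06) for Brk1. The regulators of the protocadherin clusters gave 0 calls of 10, with 0.16 (SE 0.08) for Dnmt3b, a DNA methyltransferase, and 0.11 (SE 0.08) for the cohesin subunit Smc3. Of the proteases and repressors, Ncstn had 0.07 (SE 0.08) and Zeb2 -0.25 (SE 0.20). In the desmosomal list, dim on these arrays, Dsg1a and Pkp2 had 0.11 (SE 0.07) and 0.10 (SE 0.07).

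Pcdha9, the member with the lowest p, was set against all other genes over the 15 arrays after each genotype was centred. The nearest were Dnajb5 (Pearson r = 0.90), Dsel (0.85) and the olfactory receptor gene Olfr1260 (0.85), which share the arrays and their scaling with it. Their KO differences were 0.02 (SE 0.09), 0.03 (SE 0.07) and 0.06 (SE 0.07).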

How the data were processed

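RNA of 15 P1 cerebella (8 WT, 7 KO, grouped by their labels) was amplified, biotin-labelled and hybridised by the authors to MouseRef-8 v2 BeadChips, and signals were extracted with GenomeStudio. The authors deposited the signal intensity of 25697 probes on a linear scale, not normalized between arrays and used here without a detection p, and the log2 values they made from it by a shift to a common median. Array medians of the intensity were 97.3 to 122.9, correlations between arrays 0.9845 to 0.9956, and their number limits the precision. The intensity was log2 transformed and shifted to the median of 6.84, which gave the deposited log2 values to within 6.23e-05. Symbols came from the platform annotation, updated through Entrez identifiers with RefSeq (GRCm38.p6). Exactly 1 symbol belonged to 23978 probes, several to 0 and none to 1719, and RefSeq held 23962 of them. The probe with the highest mean stood for its gene (4777 of 16593 genes had several, as did 14 members, of which 7 had all probes of 1 sign), and no dim probe was left out.

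The difference of KO from WT was fitted for every gene with limma 3.58.1 (R 4.3.3, lmFit and eBayes, two-sided), and p-values were adjusted after Benjamini and Hochberg across all genes, with calls under 0.05. Array set (numbers 1 to 4 or 5 to 8) entered as a term, and its interaction with genotype was fitted. The fit of KO against WT was also run on simulated data, drawn for each gene on its own, without shifts between array sets. Its outcome is not given here, so no power is stated for the members. Correlations, promoters and plots used Python 3.11.15 with numpy 2.4.6, pandas 2.3.3, scipy 1.17.1 and matplotlib 3.10.9. The methods call the samples biological replicates, and no label names a litter or a chip. Members, lists, tests and alternatives were chosen with earlier results of these data known.

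Members named with values are, in each family, the 3 with the lowest p and the 2 with the highest WT mean, the 4 with the largest WT SD and the 3 with the lowest p of the interaction. Also named are the 2 genes of lowest p in each partner list and the 3 genes outside the members most correlated with the member of lowest p. Further members, Ctnnb1, Xist, Ttr and the tissue markers were named after their values were seen. Pcdh11x, with a letter after its number, did not meet the rule and was not analysed here. Pcdh19, Cdh9, Cdh10, Cdh15 and Cdh18 would have met it, but no measured gene carried these symbols. Alternatives comprised quantile, no and normexp normalization (offset 50), the authors' log2 table, a filter that kept probes brighter than their array's median on 7 or more arrays, averaging of the probes of a gene, a replicate block, array set in the model or 1 set alone, Xist as a covariate, array weights, trended and robust moderation, and each array left out.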

Additional observations from a re-analysis of the deposited data

Results flagged for a closer look

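In 12 of the 160 groups tested (7.5%, where chance gives about 1 in 20), the highest or lowest array of a member stood apart from the rest of its genotype by Dixon's criterion. The share over all genes is not given, so whether members differ from other genes in this is not known. The array numbered 7 was the high one for 5 of them: WT 7 had log2 signals of 9.18 for Cdh7, 7.32 for Celsr1 and 8.39 for Pcdhb3, with the next WT arrays at 8.80, 7.10 and 8.09, and KO 7 had 7.35 for Celsr1 and 7.11 for Pcdha7, with the next at 7.04 and 6.92. On WT 5, Pcdh20 (8.73) and Pcdhgc3 (7.32) were high against 8.45 and 7.05, and Pcdhb12 (6.67) was low against 7.03. WT 4 was low for Pcdhac2 (7.41 against 7.69), KO 4 high for Cdh11 (7.06 against 6.78), KO 5 low for Cdh16 (5.91 against 6.26) and KO 3 low for Pcdha2 (6.20 against 6.54).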

How the results depend on the processing

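Over all 30 alternatives, 0 members were called between KO and WT. The lowest adjusted p of a member was 0.16, for Pcdha9 without KO 3. At an unadjusted p under 0.05 there were 2 to 8 members, beside 4.05% to 9.49% of all genes. The median difference of the members ranged from -0.063 to 0.054, and that of all genes moved to at most 0.03. With the filter on dim probes, which left 38 members and 9066 genes, there were 2, beside 7.09% of all genes. On arrays 5 to 8 there were 8, beside 9.49%, and the main fit had 5, beside 5.69%. Leaving out 1 array gave 3 to 7, beside 4.59% to 7.35% of all genes. The 3 came without WT 4 (5.21%) or KO 7 (4.73%). The count of members that differed between array sets was 6 after quantile normalization and 6 with the dim filter, in place of 10, and 6 to 11 without 1 array, with 6 without WT 7. In the main fit the 10 stood beside 20.8% of all genes. The shares of all genes in these alternatives are not given, so no change in the members is read from the counts. The interaction called 0 to 1 members without 1 array, the 1 being Pcdh10 without KO 5. Partner genes had 1 call, Fjx1, after quantile normalization and 1 with set as a block. All genes had 35 calls with the set as a block, 45 on arrays 5 to 8, 13 with Xist as a covariate and 6 on the 9 arrays with Ttr under 12, in place of 21.

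Of the 39 members named by rule, 15 kept their sign throughout. None of the following was called before or after, and Clstn2, Ctnna1, Dsg1a and Brk1 among them are partner genes, not members. The sign turned after quantile normalization (Pcdhgc5, -0.017), normexp (Pcdhb7, 0.0033, and Pcdhgc5, -0.00068), with the mean of a gene's probes (Cdh11, 0.0045), with set as a block (Pcdhgc5, -0.014) and with array weights (Celsr2, 0.011, and Pcdhb7, 0.015). On arrays 1 to 4 it turned for Cdh1 (0.13), Cdh11 (0.0043), Cdh13 (-0.095), Cdh23 (-0.089), Cdh8 (-0.077), Clstn2 (-0.0090), Ctnna1 (0.069), Dsg1a (-0.030), Pcdh10 (-0.47), Pcdh20 (0.048), Pcdh9 (-0.0046), Pcdha2 (-0.021), Pcdhac2 (-0.098) and Pcdhgb6 (-0.16). On arrays 5 to 8 it turned for Cdh17 (0.019), Cdh26 (0.13), Cdh3 (-0.030), Cdh4 (0.045), Celsr2 (0.054), Pcdh17 (0.23), Pcdhb7 (0.060) and Pcdhgc5 (-0.090). With Xist as a covariate it turned for Brk1 (0.0012), Cdh17 (0.033), Cdh26 (0.033), Celsr1 (0.058), Pcdh17 (0.048), Pcdh9 (-0.0088), Pcdhb7 (0.053), Pcdhgc4 (0.054) and Pcdhgc5 (-0.092). Of alternatives chosen after seeing the data, leaving out KO 6, 7 and 8 turned Cdh13 (-0.079), Cdh23 (-0.083), Ctnna1 (0.0083), Pcdh10 (-0.32), Pcdha6 (-0.051), Pcdhac2 (-0.041), Pcdhgb6 (-0.097) and Pcdhgc5 (-0.069), and the 9 arrays with low Ttr turned Cdh4 (0.063), Cdh8 (-0.017), Celsr2 (0.041), Pcdh15 (-0.11), Pcdh17 (0.0099) and Pcdhga5 (0.035). Leaving out 1 array gave ranges across 0 for Cdh23 (-0.016 to 0.081), Cdh26 (-0.061 to 0.010), Cdh4 (-0.082 to 0.054), Celsr2 (-0.077 to 0.025), Pcdh15 (-0.016 to 0.080), Pcdh17 (-0.061 to 0.044), Pcdhb7 (-0.042 to 0.019) and Pcdhgc5 (-0.040 to 0.046). The cause was not tested.

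Same-numbered WT and KO arrays did not pair: over 7 pairs the correlation of their deviations ran from -0.196 to 0.394, and 1 KO array correlated best with its own number. With the replicate number as a block, 0 members were called, and the sign turned for Cdh23 (-0.00085), Pcdh15 (-0.00072), Pcdh17 (0.037), Pcdhb7 (0.012) and Pcdhgc5 (-0.040). Signals below the array median, as for most cluster genes, may understate a change, and 7 to 8 arrays per group limit what could be called.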
